A study of Mus musculus with 4 samples.

Results

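Hmhi-MYC-TA cells given EGF were compared with starved Hmhi cells, both derived from melan-a, an immortal line of mouse melanocytes. The comparison used 2 of the 4 arrays of the study, 1 a side, and left out the array of Hmhi cells with EGF. Its members were the 34945 of 45101 probe sets that the annotation of the Affymetrix mouse array ties to a single gene, 18193 genes in all. All 4 cultures were starved in medium with 10% dialyzed calf serum, after growth with 10% serum, 200 nM of the phorbol ester TPA and 12 nM cholera toxin. The Hmhi culture on 1 side received nothing more during its 14 days. The Hmhi-MYC-TA culture on the other side also received 100 ng/ml EGF for 14 days, as did the Hmhi and Hmhi-Miz1 kd cultures of the remaining arrays. A difference between the 2 arrays therefore holds the MYC-TA construct and EGF together, and their parts cannot be told apart from these 2 arrays. The labels spell out neither Hmhi nor MYC-TA, and whether a line was 1 clone or a pool is not given in the sources used here.

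EGF acts on cells by binding its receptor at the surface, which switches on the RAS, RAF and ERK kinases and, through them, transcription of early genes and then of genes for growth and division. In published work, melan-a cells called Hm carry a chimera of the human EGF receptor and the fish receptor kinase Xmrk, so that EGF can signal strongly in them. MYC is a transcription factor that pairs with MAX on E-box sequences and promotes ribosome production, nucleotide synthesis and cell division. It also binds Miz-1, encoded by Zbtb17, at promoters that it holds down. The title of the series names both factors, senescence and cystathionase, the enzyme encoded by Cth that makes cysteine from cystathionine.

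Every level here is a log2 signal and every difference is MYC-TA with EGF minus starved Hmhi, so that a difference of 1 is 2-fold. Levels in 4 arrays are given in the order starved Hmhi, Hmhi with EGF, the array labelled Miz1 kd, and MYC-TA with EGF. There was 1 array a side, so the values compare 2 arrays and not 2 conditions, and no test was possible. The only error that could be had was technical: differences from probe sets of the same gene varied with an SD of 0.31 over 5329 genes. In bulk RNA of this kind, fewer cells of a type and less RNA per cell cannot be told apart. The median level of each array was 6.66, and near or below it background limits how large a fold can appear. Across probe sets the starved array correlated with the 3 arrays with EGF at r from 0.968 to 0.971. Zbtb17 read 8.73, 8.72, 9.08 and 8.71, so the array labelled Miz1 kd did not have less of its target transcript and is named here by its label only.

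The arrays carried the transcripts of pigment cells. Of 11 melanocyte markers, 9 passed the level filter, which asked that the brighter of the 2 arrays reach its own median. Sox10, the lineage regulator, read 13.22, 13.21, 13.37 and 12.96, and Tyrp1, a melanin enzyme, read 14.09, 13.07, 13.80 and 13.05. Tyr, the gene of tyrosinase, and Ednrb, an endothelin receptor, were below the array median on both sides. These 4 were named as defining markers, outside the rule for named genes. Of the markers of other cell types, those under the median on both arrays were 6 of 8 for keratinocytes, 6 of 7 for endothelium, 6 of 9 for macrophages, 4 of 10 for fibroblasts and 3 of 8 for Schwann cells. Ptprc, the pan-leukocyte gene, and the complement genes C1qa, C1qb and C1qc were among those macrophage markers. The other 3 macrophage markers passed the filter. The lysozyme gene Lyz2 read 11.87, 12.37, 11.89 and 10.74, well above the median in every array. Csf1r, the receptor for CSF1, read 9.41, 6.74, 6.87 and 6.73 by its brightest set. That set gave a difference of -2.68, but its other sets gave only -0.84 and -0.68. Cd68, a lysosomal glycoprotein, read 6.55, 8.07, 8.05 and 8.28. The mean level of the keratinocyte list was 5.74 in the starved array and 5.79 in the MYC-TA array, against 5.52 and 5.70 for endothelium and 6.37 and 6.19 for macrophages. Schwann cell genes, several of which melanocytes share, had means of 9.74 and 9.26, above the 9.09 and 8.79 of the melanocyte list. Of the Schwann genes, Mbp read 14.70, 14.00, 14.40 and 13.95 by its brightest set. Pmp22 read 12.55, 10.40, 11.07 and 10.55, and Cdh19 read 11.84, 12.13, 12.05 and 11.55. The fibroblast list had means of 7.17 and 7.38. What part other cell types have in the values was not tested.

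Of 11598 genes that passed the level filter, 966 were at least 2-fold higher in the MYC-TA array, or 8.33%, and 570 were at least 2-fold lower, or 4.91%. These 2 shares are the background for each list of genes below. At 4-fold the counts were 185 (1.6%) and 96 (0.828%), and at 16-fold they were 12 and 6. The median of all genes was 0.06, and the central 50% lay between -0.29 and 0.40. Most called genes with more than 1 usable probe set had all of them on 1 side of 0: 396 of 407 higher genes and 247 of 254 lower genes. Of the 966 higher genes, 242, or 25.1%, were below the median in the starved array, where background limits the fold. Among the 570 lower genes, 100, or 17.5%, were below the median in the MYC-TA array.

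**Figure D1:**
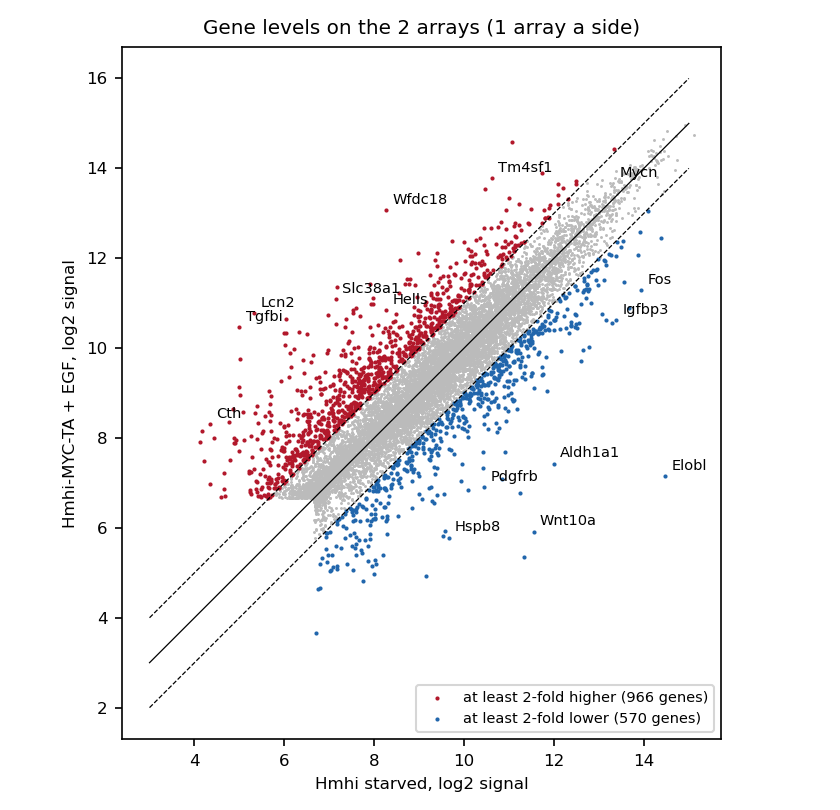
Log2 signal of 11598 genes on the starved Hmhi array (horizontal axis) and on the Hmhi-MYC-TA array with EGF (vertical axis), 1 point per gene. The solid line marks equal levels and the dashed lines 2-fold differences. The 966 higher genes in red reach from Lcn2 and Tgfbi at low starved levels to Tm4sf1 at a high one, and Elobl lies farthest below the diagonal.

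The largest positive differences were those of Lcn2, Tgfbi and Wfdc18. Lcn2, which encodes the iron-carrier-binding protein lipocalin 2, read 5.33, 12.08, 7.60 and 10.79, a difference of 5.46 or 44.0-fold. Only the starved array was below the median, and the array labelled Miz1 kd lay between it and the others. Tgfbi, an extracellular matrix protein induced by TGF-beta, read 5.001, 8.56, 7.19 and 10.46, and its 4 probe sets gave differences from 3.88 to 5.46. Wfdc18, a secreted protein with a whey acidic protein fold, read 8.27, 13.39, 9.71 and 13.07 and was the highest-ranked gene above the median on both sides. Adam12, a membrane metalloproteinase, read 5.98, 10.65, 9.90 and 10.35. All 3 arrays with EGF were thus high for Adam12. Cxadr, a cell adhesion protein that serves as the coxsackievirus and adenovirus receptor, read 6.03, 8.57, 6.39 and 10.34. Bcan, the proteoglycan brevican, read 7.17, 10.61, 8.42 and 11.35. Both of these were highest in the MYC-TA array.

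Smpdl3b, a lipid phosphodiesterase of the cell surface, read 6.33, 7.44, 5.64 and 10.35. The MYC-TA array alone was far above the median for it. Slc38a1, a carrier of glutamine and other neutral amino acids, read 7.14, 9.15, 7.09 and 11.10. Its 2 probe sets differed in size, at 1.69 and 3.96. Rragd, a GTPase that relays amino acid supply to mTORC1, read 5.01, 7.92, 5.75 and 8.95. Ptgfrn, a membrane protein that binds tetraspanins, read 4.16, 8.37, 4.06 and 8.17, so that it was below the median in the starved array and the array labelled Miz1 kd. Nup210, a nuclear pore protein, read 6.50, 9.21, 8.91 and 10.31. Spsb4, Sned1 and Cyria completed the 15 with Cth, at 4.75, 4.62 and 4.16.

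**Figure D2:**
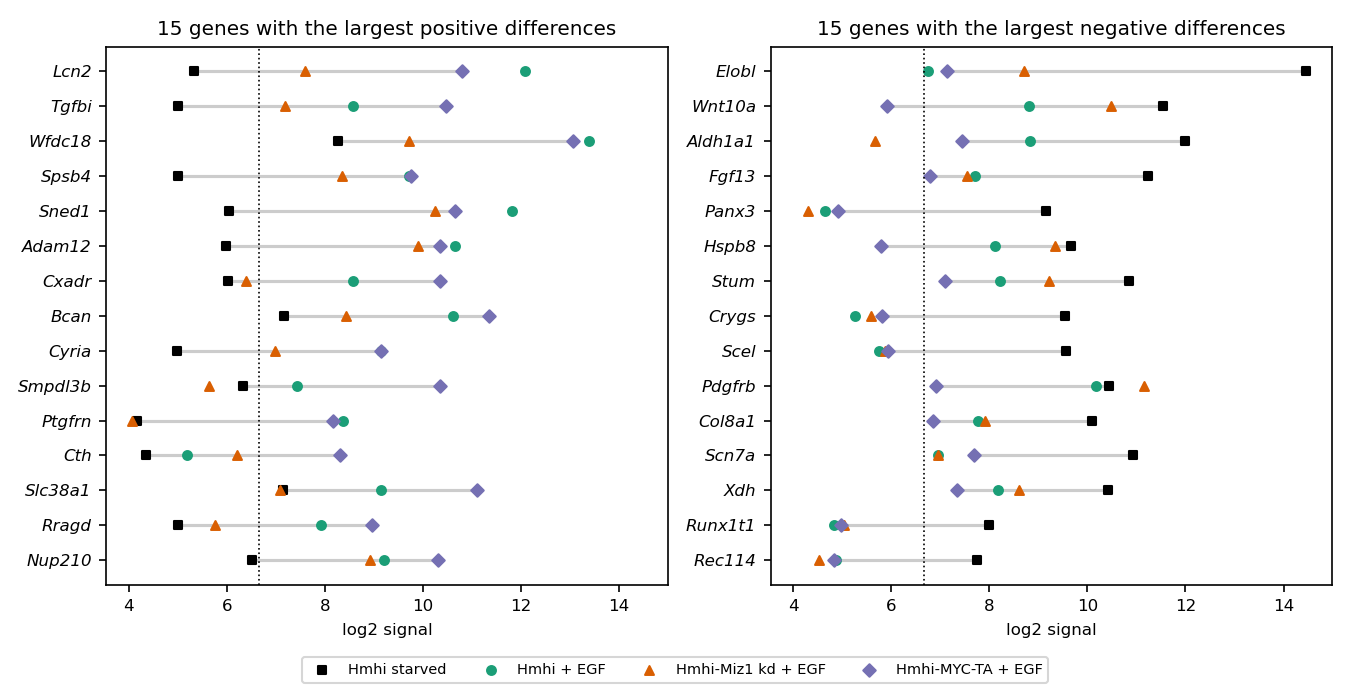
Log2 signal in each of the 4 arrays for the 15 genes with the largest positive differences (left) and the 15 with the largest negative differences (right), 1 marker per array; the grey line joins starved Hmhi to MYC-TA with EGF, and the dotted line is the array median of 6.66. Cth and Smpdl3b stand above the median only or mainly in the MYC-TA array, while Adam12 is high in all 3 arrays with EGF and Scel is low in all 3.

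On the lower side Elobl, an elongin-B-like gene, had the largest difference of the comparison. It read 14.47, 6.76, 8.71 and 7.14, a difference of -7.32 or 160-fold, on 1 probe set. The starved array stood alone near the top of the scale. Wnt10a, a secreted WNT ligand, read 11.55, 8.82, 10.49 and 5.92, a difference of -5.63. It was lowest in the MYC-TA array, where it was below the median. Aldh1a1, a retinaldehyde dehydrogenase, read 12.00, 8.83, 5.66 and 7.43. Fgf13, an intracellular FGF-like protein that binds sodium channels, read 11.24, 7.72, 7.55 and 6.78. Hspb8, a small heat shock protein, read 9.66, 8.13, 9.34 and 5.78, with its 3 probe sets between -3.88 and -1.06. By its brightest set, Hspb8, like Wnt10a, was below the median in the MYC-TA array only. Its other sets read 6.81 and 7.79 in the MYC-TA array, above the median. The set at 7.79 read 7.68 in Hmhi with EGF, so by that set the MYC-TA array was not the lowest.

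Pdgfrb, the beta receptor for PDGF, read 10.45, 10.18, 11.16 and 6.91, so that only the MYC-TA array was low. Its 2 probe sets gave -3.54 and -1.43. Panx3 (a channel protein), Crygs (a crystallin) and Scel (sciellin) were below the median in all 3 arrays with EGF, at differences of -4.24, -3.72 and -3.63. Xdh, the xanthine dehydrogenase that degrades purines, read 10.41, 8.17, 8.61 and 7.33. Col8a1, a short-chain collagen, read 10.10, 7.77, 7.91 and 6.85. Stum, Scn7a (a sodium channel), Runx1t1 (a transcriptional corepressor) and Rec114 (a meiotic recombination protein) had differences of -3.74, -3.22, -3.01 and -2.93.

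Cth and the MYC genes were followed in every array because the series title names them. Cth read 4.34, 5.18, 6.20 and 8.31, a difference of 3.96 or 15.6-fold on its only probe set. It was below the median in the first 3 arrays and above it in the MYC-TA array alone. Of 14 genes of sulfur amino acid metabolism that passed the level filter, Cth was the only one past 2-fold. That share, 7.14%, was near the 8.33% of all genes that were higher, and the list's median was -0.10. Suox (sulfite oxidase), Mpst and Tst (both sulfurtransferases) had differences of -0.81, -0.59 and -0.46, and Gnmt, a glycine methyltransferase, had 0.47. Myc read 10.64, 10.60, 10.79 and 9.78 on 1 probe set, a difference of -0.86. The sources used here do not say if the probes match RNA from the construct. Mycn, the neuroblastoma paralogue, read 13.32, 13.53, 7.57 and 13.68, high in 3 arrays and low in the array labelled Miz1 kd, by its brightest probe set. Its other usable set disagreed, at 5.56, 6.97, 6.84 and 7.22, with no low value in the Miz1 kd array against Hmhi with EGF and a difference of 1.66 in place of 0.36. Mycl was the only gene past 2-fold of the 13 in the MYC network list, at 1.10, with its first 3 levels below the median. That share, 7.69%, was also near the share of all genes. Mxd3, a MAX partner, had 0.83, and Mga and Mnt, which pair with MAX as repressors, had -0.61 and -0.57.

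Genes of cell division were higher almost throughout. Of 38 genes of mitosis, all passed the level filter, all had differences above 0 and 35, or 92.1%, were at least 2-fold higher, against 8.33% of all genes. Their median was 1.53, within a range of 0.37 to 2.01. Incenp, a subunit of the chromosomal passenger complex, read 10.15, 11.46, 11.19 and 12.16. Mki67, the Ki-67 protein of dividing cells, read 10.44, 11.97, 12.01 and 12.30. For both, all 3 arrays with EGF were above the starved array and the MYC-TA array was highest. Cks2, a subunit of cyclin-dependent kinases, read 10.14, 11.17, 10.58 and 12.05. Ccnb2, a mitotic cyclin, read 8.48, 10.02, 9.56 and 10.32, and Ube2c, which loads ubiquitin for the anaphase-promoting complex, read 9.66, 10.66, 9.73 and 11.48. The mitosis median against the starved array was 0.95 for Hmhi with EGF and 0.70 for the array labelled Miz1 kd. These 3 values share the starved array, and so do all list medians set side by side here.

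Genes of DNA replication followed with smaller differences. Of 45 S-phase genes past the filter, 22, or 48.9%, were at least 2-fold higher and none was 2-fold lower, with a median of 0.99. The same list had medians of 0.40 in Hmhi with EGF and 0.21 in the array labelled Miz1 kd. Cdt1, which loads the replicative helicase, read 9.82, 11.05, 11.12 and 11.89. Mcm5, a subunit of that helicase, read 9.12, 9.85, 9.33 and 10.95, and Mcm10, which helps to start replication, read 7.60, 8.45, 8.32 and 9.46. Each was highest in the MYC-TA array. Dut, which clears dUTP, and Uhrf1, which carries DNA methylation through replication, had differences of 1.87 and 1.85. Of 22 genes of the nuclear lamina and chromatin, 10, or 45.5%, were at least 2-fold higher, against 8.33% of all genes. None was 2-fold lower, and the median was 0.95. Hells, a chromatin remodeller, read 8.26, 9.54, 9.07 and 10.85. Lbr and Lmnb1, both of the inner nuclear membrane and its lamina, had differences of 2.10 and 1.78. Hmgb2, a chromatin protein, read 10.34, 10.81, 10.08 and 11.89. Hmga2, another, had 1.71 by its brightest set, but its 4 sets ranged down to -0.01.

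Replication genes are classic targets of the E2F factors, so the promoters were searched for the letters TTTCCCGC or TTTGGCGC on either strand. The window was the 300 bases from 250 before to 50 after each RefSeq start on GRCm38.p6, and 9408 of the 11598 genes had an entry, counted as holding a motif if any of its listed starts did. The E2F letters were in 10 of 36 S-phase promoters, or 27.8%, against 3.54% of all genes in the comparison, 5.92% of the higher and 2.46% of the lower genes. They were in 0 of 31 promoters of the mitosis list. The 2 promoters printed, for Mcm5 of the S-phase list at chr8:75109259-75109558 on the plus strand and Hells of the lamina and chromatin list at chr19:38930740-38931039 on the plus strand, show the match in capitals, 5′ to 3′ along the gene. It begins 149 bases before the start in Mcm5, where it lies on the opposite strand, and 62 bases before it in Hells.
Mcm5: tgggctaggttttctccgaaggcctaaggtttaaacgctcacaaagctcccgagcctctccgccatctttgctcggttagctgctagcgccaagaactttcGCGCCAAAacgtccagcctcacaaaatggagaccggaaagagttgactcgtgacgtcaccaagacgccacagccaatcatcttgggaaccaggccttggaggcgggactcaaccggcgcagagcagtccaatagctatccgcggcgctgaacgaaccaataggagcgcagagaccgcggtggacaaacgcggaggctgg
Hells: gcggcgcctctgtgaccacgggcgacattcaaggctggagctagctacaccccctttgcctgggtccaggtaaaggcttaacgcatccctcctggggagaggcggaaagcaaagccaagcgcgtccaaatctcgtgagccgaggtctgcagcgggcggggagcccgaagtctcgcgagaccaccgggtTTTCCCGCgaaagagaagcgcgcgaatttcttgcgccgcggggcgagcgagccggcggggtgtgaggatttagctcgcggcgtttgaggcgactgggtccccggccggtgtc

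Ribosome production genes were mostly above 0, by less than 2-fold. Of 44 genes of ribosome biogenesis, all passed the filter and 37 had differences above 0, against 54.9% of all genes, but only Lyar was past 2-fold. The list's median was 0.36. Lyar, a nucleolar protein, read 8.91, 8.82, 8.65 and 9.93. Rrs1, needed for the large subunit, read 10.57, 10.57, 10.56 and 11.45. For both, the MYC-TA array alone stood apart from 3 similar arrays. Gar1, of the pseudouridylation complex, and Pprc1, a coactivator, had differences of 0.89 and 0.87, and they too were level in the other 3 arrays. Nop56, of the methylation complex, had 0.93 and was higher in all 3 arrays with EGF. The list medians in Hmhi with EGF and in the array labelled Miz1 kd were -0.12 and -0.03.

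Of 24 genes of nucleotide, folate and polyamine synthesis, 3, or 12.5%, were at least 2-fold higher, against 8.33% of all genes, and none was lower. The median was 0.36, and -0.09 and -0.13 in the other arrays with EGF. Shmt1 and Shmt2, the serine hydroxymethyltransferases that feed the folate pool, had differences of 1.20 and 1.01, and Umps, of pyrimidine synthesis, had 1.002. Umps read 8.99, 8.96, 8.65 and 9.99, so that only the MYC-TA array was high. Ppat, the first enzyme of purine synthesis, had 0.74. No gene passed 2-fold among 26 ribosomal proteins, with a median of 0.12, or among 33 respiratory chain genes, with a median of 0.08. The widest values there were 0.69 for Rpl12 and -0.54 for Rps6, and 0.61 for Cox5a and -0.48 for Ndufa5.

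Of 19 amino acid transporters past the filter, 7, or 36.8%, were at least 2-fold higher, against 8.33% of all genes, and none was lower, against 4.91%. Their median was 0.74, which the other arrays with EGF nearly shared, at 0.74 and 0.72. Beside Slc38a1, Slc7a5, a carrier of large neutral amino acids, read 11.11, 12.78, 12.96 and 12.73, and Slc7a1, a carrier of cationic ones, read 11.48, 12.76, 12.98 and 13.09. Slc7a11, the cystine importer, read 5.21, 7.37, 7.90 and 7.22. In contrast to Cth, it was high in all 3 arrays with EGF. Of 28 genes of the ATF4 response to amino acid shortage, 7 were at least 2-fold higher and none lower, with a median of 0.48. Trib3, a pseudokinase, read 8.88, 10.86, 11.05 and 10.91, and Vldlr, a lipoprotein receptor, had 6 probe sets between 2.03 and 3.07. Aldh18a1, which starts proline synthesis, read 9.79, 10.53, 10.92 and 11.62, and Eif4ebp1, an inhibitor of translation start, had 1.27.

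The E-box letters CACGTG, to which MYC and MAX bind, were searched in the same windows. They were in 12.5% of promoters of higher genes, 10.0% of lower genes and 11.9% of all genes in the comparison, so the higher genes as a whole were near the background. They were in 9 of 38 promoters of ribosome biogenesis genes, or 23.7%, and in 4 of 19 promoters of immediate early genes, or 21.1%, a list with a median below 0. The promoter of Aldh18a1 at chr19:40588414-40588713 on the minus strand is printed because all 5 of the gene's probe sets were higher, between 1.33 and 1.84, and the MYC-TA array was the highest. Capitals mark the E-box, which begins 59 bases before the start.
Aldh18a1: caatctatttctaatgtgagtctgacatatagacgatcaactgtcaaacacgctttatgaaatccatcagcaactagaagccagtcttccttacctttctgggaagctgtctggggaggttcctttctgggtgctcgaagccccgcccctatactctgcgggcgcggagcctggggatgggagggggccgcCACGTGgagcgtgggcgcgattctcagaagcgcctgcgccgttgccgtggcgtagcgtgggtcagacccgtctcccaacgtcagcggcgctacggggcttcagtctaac

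Genes downstream of the EGF receptor and ERK differed by class. Of 18 feedback genes, which encode transcription factors and inhibitors that ERK signalling induces, 9, or 50.0%, were at least 2-fold higher, against 8.33% of all genes. Another 2, or 11.1%, were lower, against 4.91%, and the median was 0.88. Etv5, an ETS factor, read 9.40, 12.51, 11.89 and 12.11, and its relative Etv4 read 6.18, 8.23, 8.46 and 8.06. Spry4 and Il17rd, which restrain receptor signalling, had differences of 1.92 and 2.59. All 4 were high in each array with EGF, and the list medians in the other 2 such arrays were 0.89 and 0.92. Dusp1, a phosphatase of MAP kinases that is also an immediate early gene, went the other way, at 13.66, 10.77, 10.60 and 10.89.

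Of 24 immediate early genes, which answer a stimulus within minutes, 8, or 33.3%, were at least 2-fold lower, against 4.91% of all genes, and 2 were higher. Their median was -0.86, and -0.88 and -0.71 in the other arrays with EGF. Fos, a subunit of AP-1, read 13.94, 10.58, 10.14 and 11.29. Zfp36, which destabilises mRNAs, read 11.84, 9.05, 9.14 and 9.04, and Egr2, a zinc finger factor, read 9.78, 6.51, 6.51 and 7.64. Fosb and Btg2 had differences of -1.97 and -1.99. Of these 5, the starved array was the highest for each. The arrays were made 14 days after EGF was first given. Genes of actin and of the factors SRF and YAP had a median of -0.18 over 26 genes. Of these, 2, or 7.69%, were higher and 5, or 19.2%, lower, against 8.33% and 4.91% of all genes. Tagln, a smooth muscle actin-binding protein, read 10.77, 9.39, 9.59 and 8.69, and Cnn1, calponin, read 11.72, 7.93, 6.95 and 9.57.

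The CArG box, to which SRF binds, was in 3 of 19 promoters of immediate early genes, or 15.8%, against 1.65% of all genes in the comparison. The promoter of Zfp36 at chr7:28379179-28379478 on the minus strand is printed as the gene of that list with the largest difference. The box, in capitals, begins 58 bases before the start.
Zfp36: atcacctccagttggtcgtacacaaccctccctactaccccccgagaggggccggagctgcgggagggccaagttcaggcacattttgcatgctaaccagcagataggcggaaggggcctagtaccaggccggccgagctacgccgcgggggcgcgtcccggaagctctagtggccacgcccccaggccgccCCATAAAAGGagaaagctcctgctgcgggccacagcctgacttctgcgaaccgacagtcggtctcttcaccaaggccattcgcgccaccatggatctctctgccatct
AP-1 letters TGANTCA were in 7.37% of promoters of higher genes, 8.26% of lower genes and 5.97% of all. The cyclic AMP element TGACGTCA was in 2.76%, 2.01% and 3.61% of them in that order.

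Among EGF receptor family members and ligands, 14 genes passed the filter and none was past 2-fold. Adam17, which sheds EGF ligands, and Btc, the ligand betacellulin, had differences of 0.93 and 0.91. Erbb3 read 11.76, 13.11, 13.26 and 12.63, and Erbb2 read 10.27, 10.13, 10.57 and 9.56. Lrig1, an inhibitor of these receptors, read 9.54, 11.10, 11.54 and 10.31, lower in the MYC-TA array than in the other 2 arrays with EGF. Growth factor receptors and ligands of other families varied widely. Of 19, 4, or 21.1%, were higher and 3, or 15.8%, lower, against 8.33% and 4.91% of all genes. Tyro3 read 5.70, 8.97, 8.40 and 8.93 by its brightest set, a difference of 3.23, but its other usable set gave only 0.96. Mertk, its relative, read 6.58, 8.44, 7.56 and 9.13. Kitl, the KIT ligand, read 10.97, 9.64, 10.89 and 8.95, lowest in the MYC-TA array.

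Pigment genes were lower as a group. Of 20 genes of melanin synthesis and the melanosome past the filter, 8, or 40.0%, were at least 2-fold lower, against 4.91% of all genes. Only 1, or 5.0%, was higher. The median was -0.81, against -0.30 in Hmhi with EGF and -0.20 in the array labelled Miz1 kd. Rab32, which guides enzymes to melanosomes, read 10.77, 8.47, 8.86 and 8.21. Hps5, of a complex that sorts melanosome cargo, read 9.66, 8.38, 8.87 and 7.77. Both were highest in the starved array. Oca2, a melanosome membrane protein that sets its pH, read 8.29, 9.36, 10.09 and 6.21, so that it was lower in the MYC-TA array than in any other. Mlana, of the melanosome membrane, read 12.78, 11.95, 11.68 and 11.32, and Gpr143, a melanosome receptor, had -1.31. Dct, a melanin enzyme, was the 1 gene at least 2-fold higher, at 9.79, 11.26, 9.19 and 11.08. In all, 6 of the 20 genes had differences above 0.

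Of 17 melanocyte lineage factors, 4, or 23.5%, were at least 2-fold lower, against 4.91% of all genes. Only 1, or 5.88%, was higher, against 8.33%, and the median was -0.26. Mitf, the master regulator of the lineage, read 10.81, 9.91, 9.96 and 9.65, and its other probe set did not pass the filter. Zeb2, Snai2 and Sox2, factors of neural crest cells and their descendants, had differences of -1.18, -1.05 and -1.01. For these 4 factors, all 3 arrays with EGF were below the starved array by the brightest set. Other usable Zeb2 sets did not all share this: 1 read 9.39, 9.58, 9.85 and 8.70, and another read 7.37, 7.19, 7.51 and 6.09. Kit, the receptor that melanocytes need to survive and migrate, read 6.12, 7.04, 6.37 and 7.53. Of the 9 melanocyte markers past the filter, 5, or 55.6%, were at least 2-fold lower and 2, or 22.2%, higher.

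Interferon genes were split. Of 35 genes of the interferon response past the filter, 9, or 25.7%, were at least 2-fold higher and 2 lower, with a median of 0.35, against 0.64 in Hmhi with EGF and 0.15 in the array labelled Miz1 kd. Bst2, or tetherin, which holds virions at the cell surface, read 8.98, 12.24, 11.20 and 12.11. Rsad2, the antiviral enzyme viperin, read 8.77, 11.76, 10.54 and 11.42. Usp18, which removes ISG15, and Rtp4 and Oasl2 had differences of 2.20, 2.11 and 2.03. All 5 were lowest in the starved array. Of 16 genes of MHC class I presentation, 5, or 31.25%, were at least 2-fold higher, against 8.33% of all genes. None was 2-fold lower, and the median was 0.54. Tap1, the peptide transporter, read 7.55, 10.66, 9.42 and 10.00, although its other usable set gave only 0.38. Psmb9, an immunoproteasome subunit, read 7.02, 9.54, 7.08 and 8.84, and H2-M3 read 6.46, 8.96, 6.60 and 8.19. Both were high in the Hmhi array with EGF and the MYC-TA array only. H2-K1 and H2-D1, closely related class I genes whose probe sets may share transcripts, had 1.31 and 1.17.

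Of 10 interferon-inducible GTPases, 8 had differences above 0 and 2 below, with a median of 0.16, and 1 was 2-fold higher and 1 lower. Gbp2 read 10.97, 8.61, 8.74 and 8.60, and Iigp1 read 6.53, 9.23, 7.95 and 7.87. Gbp8 read 7.27, 10.48, 10.45 and 7.75, so that the MYC-TA array was near the starved array while the other 2 arrays with EGF were high. The interferon element, GAAA then any 2 bases then GAAA, was in 9 of 24 promoters of interferon response genes, or 37.5%, against 3.53% of all genes in the comparison. The promoters of Bst2 at chr8:71537423-71537722 and Rsad2 at chr12:26456403-26456702, both on the minus strand, are printed for the 2 largest differences of the list. Bst2 holds 2 overlapping matches, and the match in Rsad2 lies on the opposite strand.
Bst2: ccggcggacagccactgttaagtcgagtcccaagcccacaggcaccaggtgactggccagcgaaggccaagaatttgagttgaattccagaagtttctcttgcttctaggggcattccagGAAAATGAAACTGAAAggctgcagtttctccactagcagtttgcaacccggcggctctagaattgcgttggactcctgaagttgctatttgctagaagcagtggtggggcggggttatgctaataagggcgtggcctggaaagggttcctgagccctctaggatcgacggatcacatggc
Rsad2: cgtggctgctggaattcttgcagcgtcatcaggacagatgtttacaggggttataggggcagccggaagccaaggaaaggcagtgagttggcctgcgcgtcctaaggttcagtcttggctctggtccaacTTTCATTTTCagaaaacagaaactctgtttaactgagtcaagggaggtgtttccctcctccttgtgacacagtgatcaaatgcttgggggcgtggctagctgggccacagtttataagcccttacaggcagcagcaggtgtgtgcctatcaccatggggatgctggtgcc

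Genes linked to senescence, the lasting arrest of division, were mixed. Of 19 CDK inhibitors and other gatekeepers past the filter, 4, or 21.1%, were at least 2-fold higher, against 8.33% of all genes. None was 2-fold lower, and the median was -0.14. Cdkn1a, the inhibitor p21, read 8.12, 10.29, 9.49 and 10.11, and both of its probe sets were higher, at 1.53 and 1.99. Rbl1, the pocket protein p107, read 8.24, 9.52, 9.21 and 9.73, and its relative Rbl2, or p130, read 9.93, 8.99, 8.97 and 8.93. Tbx2, a repressor of CDK inhibitors, read 7.86, 10.05, 9.92 and 9.27. Glb1, the lysosomal beta-galactosidase, read 9.39, 10.78, 10.37 and 10.52. The 3 arrays with EGF lay on the same side of the starved array for each of these 5. Of 21 p53 targets, Cdkn1a was the only one 2-fold higher, or 4.76%, with a median of -0.05. Another 3, or 14.3%, were lower, against 4.91% of all genes. Ccng1 and Rrm2b had -1.42 and -1.23, beside Btg2 at -1.99.

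Of 35 measured genes of the senescence secretory list, 15 passed the filter. Of these, 3, or 20.0%, were higher and 3, or 20.0%, lower, against 8.33% and 4.91% of all genes. Igfbp3, which binds insulin-like growth factors, read 13.38, 10.76, 10.63 and 10.62, and Igfbp5 read 11.69, 10.47, 11.32 and 10.48, although its other probe set gave 0.04. Ccl5, a chemokine, read 7.98, 10.63, 9.98 and 9.91. Igfbp4 read 6.50, 8.23, 8.09 and 8.38 by its brightest set, but its 5 usable sets gave differences from 0.14 to 2.39. Igfbp7, from the same family, had 1.06, and its other usable set gave 0.29. Il18 read 13.28, 11.08, 11.43 and 10.55 in a list of 14 chemokines and interleukins. In that list 4, or 28.6%, were higher and 2, or 14.3%, lower. Of 31 lysosome genes, 4, or 12.9%, were higher and 1, or 3.23%, lower, near the shares of all genes, 8.33% and 4.91%. Their median was 0.38, and Ctsf, a cathepsin, read 8.98, 9.92, 9.05 and 10.41. Of 13 S100 and annexin genes, 1, or 7.69%, was higher and 2, or 15.4%, were lower, with a median of -0.53. Over all 20 measured genes the median was -0.13, and with the mean of probe sets it was -0.17. S100a4 read 14.38, 11.87, 12.68 and 12.44, and Anxa7 had -1.57.

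Matrix genes went both ways. Of 23 collagens past the filter, 3 were at least 2-fold higher and 6 lower. Col3a1 read 6.59, 7.21, 6.25 and 9.69, and Col9a1 read 8.79, 10.21, 7.39 and 11.53, both highest in the MYC-TA array. Col2a1 read 7.39, 10.05, 6.21 and 9.48, and Col6a2 read 12.99, 11.20, 11.95 and 11.41. Of 20 metalloproteinases, 6, or 30.0%, were higher and 1, or 5.0%, was lower, with a median of 0.57. Mmp2, a gelatinase, read 10.93, 13.15, 12.19 and 13.07. Adamts9, at 2.72 by its brightest set, had another at 0.05. Integrins and cadherins had 4 higher, or 20.0%, and none lower of 20, among them Itgb3 at 7.31, 10.17, 10.15 and 9.50. Col3a1 and Postn, which read 7.91, 10.15, 8.85 and 10.03, are also fibroblast markers. Of 10 such markers, 6 passed the filter, with 2, or 33.3%, higher and 1, Pdgfrb, or 16.7%, lower. Col1a1, Lum, Thy1 and Fap were below the median on both arrays.

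Of 25 members of the TGF-beta family and its targets, 3, or 12.0%, were higher and 6, or 24.0%, were lower. The shares of all genes were 8.33% and 4.91%. Ltbp1, which anchors latent TGF-beta in the matrix, read 6.97, 11.23, 10.71 and 10.73. The inhibitors of differentiation Id4 and Id3 were on opposite sides, Id4 at 7.42, 11.01, 10.86 and 10.11 and Id3 at 10.71, 7.58, 6.67 and 8.34. Fst, follistatin, and Grem1, gremlin, both secreted antagonists, had -2.47 and -1.24. In the WNT pathway, 2 of 20, or 10.0%, were higher and 4, or 20.0%, were lower, with a median of 0.00. The receptors Fzd4 and Fzd7 had 2.38 and 1.57, while the ligand Wnt9a and the secreted Dkk3 had -1.86 and -2.32, beside Wnt10a. Dkk3 read 11.75, 11.21, 11.59 and 9.43, with only the MYC-TA array low.

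Of 29 genes of sterol and fatty acid synthesis, 3, or 10.3%, were at least 2-fold higher, near the 8.33% of all genes, and 6, or 20.7%, were lower, against 4.91%. The median was -0.24. Among the higher genes, Elovl6, an elongase, read 8.09, 10.07, 9.15 and 10.51, and Fads2, a desaturase, read 8.47, 9.40, 5.71 and 10.60. Among the lower genes, the sterol synthesis enzyme Fdft1 read 10.78, 10.06, 9.82 and 9.35, and Lss and Fdps, of the same pathway, had -1.34 and -1.21. Fdft1 had 1 probe set at -0.01. Of 13 apolipoproteins and genes of lipid efflux, 3, or 23.1%, were higher and 1, or 7.69%, was lower. Their median was 0.45, against 1.21 in Hmhi with EGF. Abca1, which exports cholesterol, read 9.64, 11.73, 11.39 and 11.61, and Clu, clusterin, read 7.85, 9.52, 7.63 and 9.33. Abca8a, a related exporter, read 8.78, 10.92, 10.83 and 7.56, lowest in the MYC-TA array. Of 30 genes of glutathione and NRF2, 2, or 6.67%, were higher and 3, or 10.0%, were lower. The lower ones were Me1, Taldo1 and Gstm2 at -1.22, -1.12 and -1.06. In glycolysis and hypoxia, 2 of 21, or 9.52%, were higher, near the 8.33% of all genes. Another 2, or 9.52%, were lower, against 4.91%. Slc16a1, a lactate carrier, had 2.37 and Pfkp 1.51, while Ndrg1 and Bnip3 had -1.14 each. Of 19 heat shock and chaperonin genes, Hspb8 alone, or 5.26%, was past 2-fold, near the 4.91% of all genes that were lower.

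**Figure D3:**
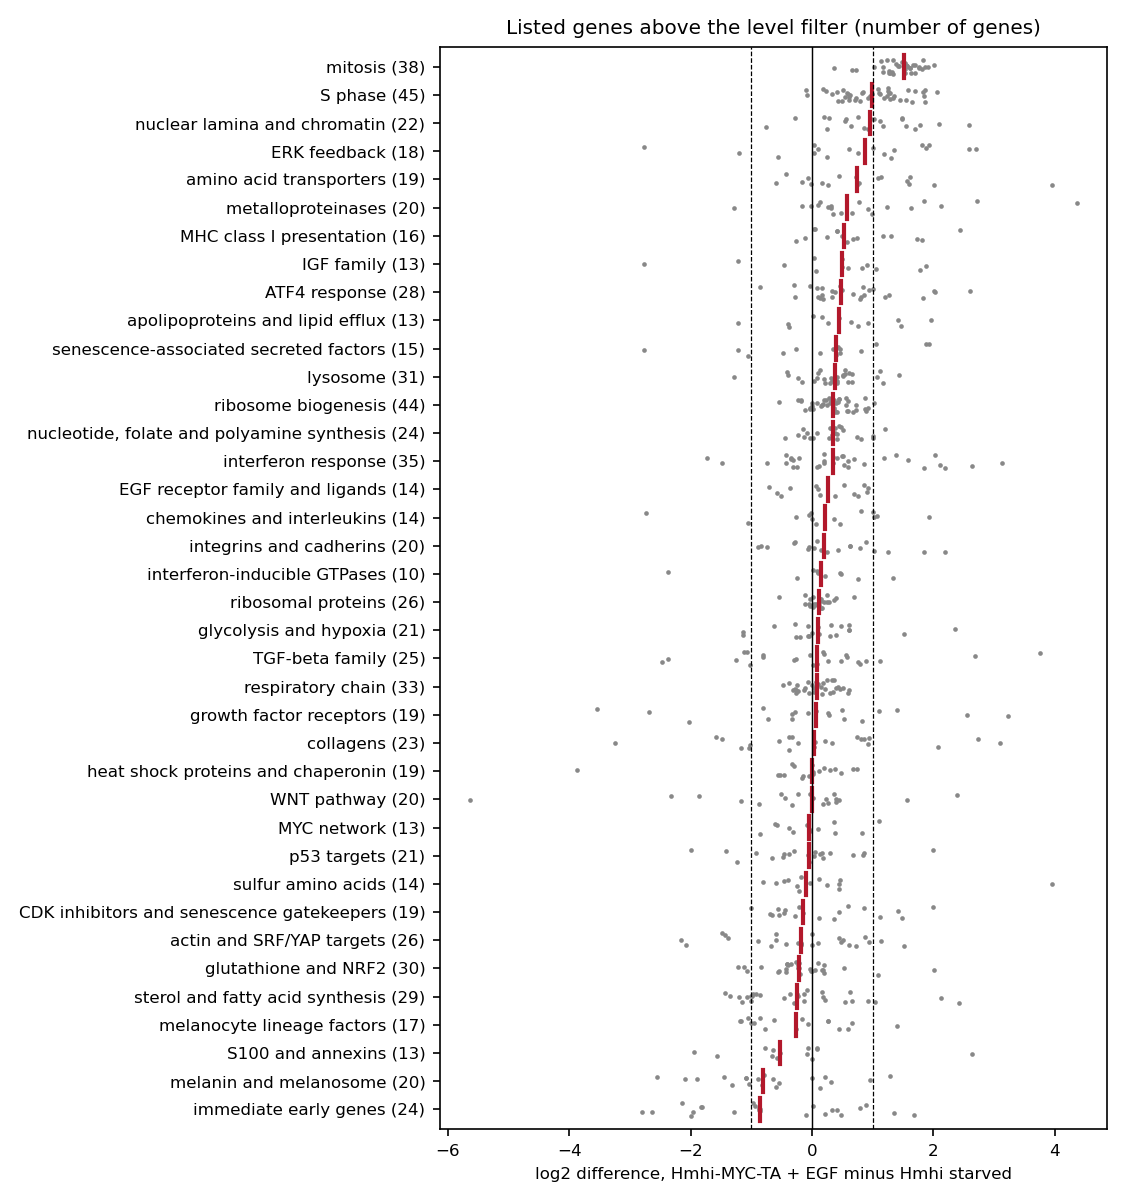
Log2 differences, MYC-TA with EGF minus starved Hmhi (horizontal axis), for members of 38 gene lists with at least 10 genes past the level filter; each grey point is 1 gene, each red bar the list's median, and the dashed lines mark 2-fold. Mitosis lies highest, with a median of 1.53 and every gene above 0, and immediate early genes lie lowest, at -0.86.

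The 3 arrays with EGF differed in how far the lists lay from the starved array. In mitosis, S phase and ribosome biogenesis, the MYC-TA array had the largest median of the 3. ERK feedback, at 0.88, 0.89 and 0.92, and amino acid transporters, at 0.74, 0.74 and 0.72, were close in the MYC-TA, Hmhi and Miz1 kd arrays with EGF, in that order. Interferon genes, MHC class I, lysosome genes and apolipoproteins had their largest median in the Hmhi array with EGF. The medians of all genes on these 3 differences were 0.06, 0.01 and 0.01.

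**Figure D4:**
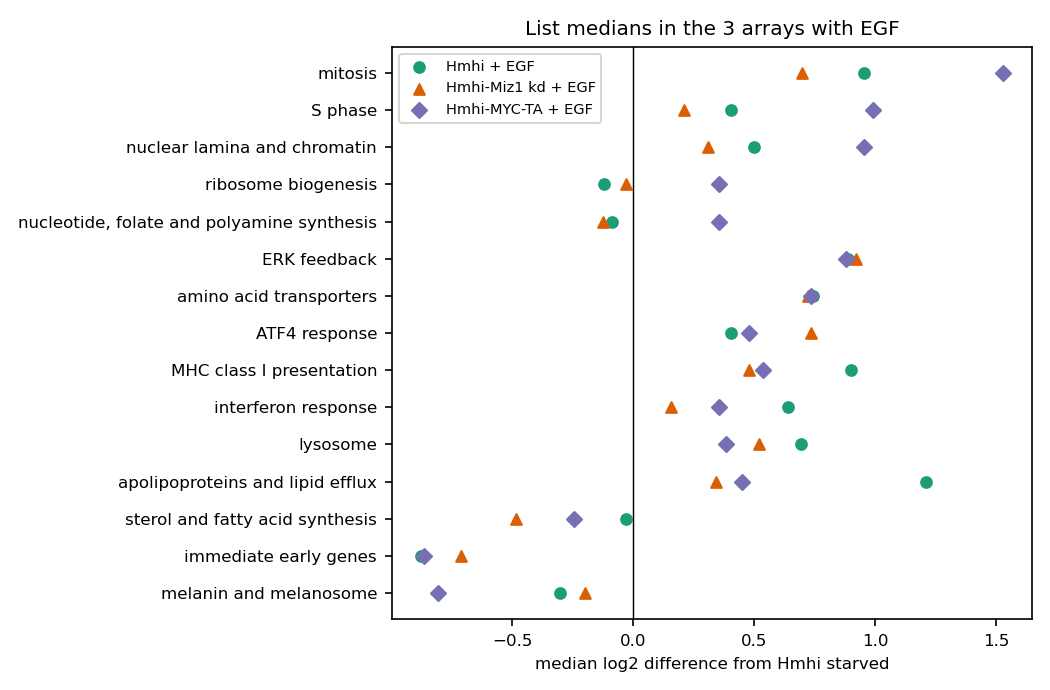
Median log2 difference from starved Hmhi (horizontal axis) of 15 gene lists in each array with EGF, 1 marker per array; the 3 differences share the starved array. The MYC-TA marker lies to the right of both others for mitosis, S phase, lamina and chromatin, ribosome biogenesis and nucleotide synthesis, and to the left for melanin genes.

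Some genes were close in Hmhi cells with and without EGF and differed in the MYC-TA array, and up to 8 in each direction were named. Fetub, a secreted fetuin, read 5.39, 5.71, 5.45 and 8.72, above the median only in the MYC-TA array. S100a6, a calcium-binding protein, read 4.34, 4.12, 5.15 and 6.97, and Ocln, a tight junction protein, read 5.69, 5.95, 5.81 and 7.39. Trip13, an ATPase of the spindle checkpoint, read 7.71, 8.17, 7.66 and 9.43. Afap1l2, Igfbp2 and Zfp518a were also highest there, at differences of 2.06, 1.78 and 1.74, and were lowest in the array labelled Miz1 kd. Lower in the MYC-TA array than in the other 3 were Pdgfrb, Bnc2, Aspa, Zbtb20, Lrrc4c, Samd9l, Nod1 and Sbno2. Zbtb20, a zinc finger repressor, read 11.28, 10.84, 11.47 and 9.36, and all 9 of its probe sets lay between -1.96 and -1.38. Aspa, which splits acetylaspartate, read 11.05, 10.71, 11.58 and 9.004.

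Other genes differed from the starved array by like amounts in all 3 arrays with EGF. Serpinf1, the secreted serpin PEDF, read 10.47, 14.03, 13.99 and 13.55, and Tm4sf1, a surface protein, read 10.63, 13.94, 13.71 and 13.78. Mcpt8, Galnt3, Adgra2 and Emp1 had differences of 3.78, 3.39, 3.25 and 3.003. Hdac9 and Plcl1 were lower in all 3, at -2.86 and -2.80.

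In a further set the MYC-TA array was close to the starved array although Hmhi with EGF was not. Apoe, the lipid-carrying apolipoprotein, read 8.52, 12.05, 12.16 and 8.13. Acta2, smooth muscle actin, read 11.81, 9.70, 8.86 and 11.80, and Ddx4, a germline helicase, read 9.17, 6.94, 5.82 and 9.66. Ccl6 read 7.44, 9.72, 8.82 and 7.39, and Trim12c read 6.91, 9.30, 7.89 and 6.995. The genes of this set were chosen by that pattern, so their levels are a description.

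The comparison was also set beside the array labelled Miz1 kd minus Hmhi with EGF, which shares no array with it. Across 11187 genes in both, Pearson's r was -0.40 and Spearman's rho -0.29, as a description over genes that are not independent replicates and that were normalised together. In that second comparison, 0.29% of its 11394 genes were higher by at least 2-fold and 2.5% lower. Of the 11187 shared genes, 277 were lower there, and 162 of them, or 58.5%, were higher by at least 2-fold in MYC-TA over starved Hmhi, where 8.197% of all these genes were. The 162 made up 17.7% of the 917 higher genes of the main comparison. On the other side, 26 genes were higher under the Miz1 kd label, and 11 of them, or 42.3%, were lower by at least 2-fold in MYC-TA, where 4.44% of all were. Lcn2, Ptgfrn, Wfdc18 and Fads2 had differences of -4.48, -4.31, -3.67 and -3.69 in the Miz1 kd comparison. Hspb8, Wnt10a and Elobl had 1.21, 1.67 and 1.95 there.

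Few genes went the same way in both, where only 26 were higher under the Miz1 kd label. The 3 higher in both were 11.5% of those 26, against 8.197% of all shared genes that were higher in MYC-TA. The 6 lower in both were 2.17% of the 277 lower under that label, against 4.44% of all. The 3 that were higher in both, Tcim, Steap1 and Msln, were named after their values were seen, and Tcim had 2.59 in the main comparison and 2.48 in the other. Of the 6 lower in both, Aldh1a1 was at -4.57 and -3.17. Of the genes typical of 2-cell embryos, a list of 7 with 4 past the filter, 3 were higher in MYC-TA and lower under the Miz1 kd label. Tcstv1 read 4.22, 7.86, 3.65 and 7.48, Usp17la read 5.65, 9.34, 5.13 and 8.58, and Zfp352 read 6.42, 8.39, 6.22 and 8.13. All 3 were below the median in the starved array and in the array labelled Miz1 kd. They passed the filter only through the array where they were high, so their count is a description. Eif1a, the other one past the filter, had -0.27.

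**Figure D5:**
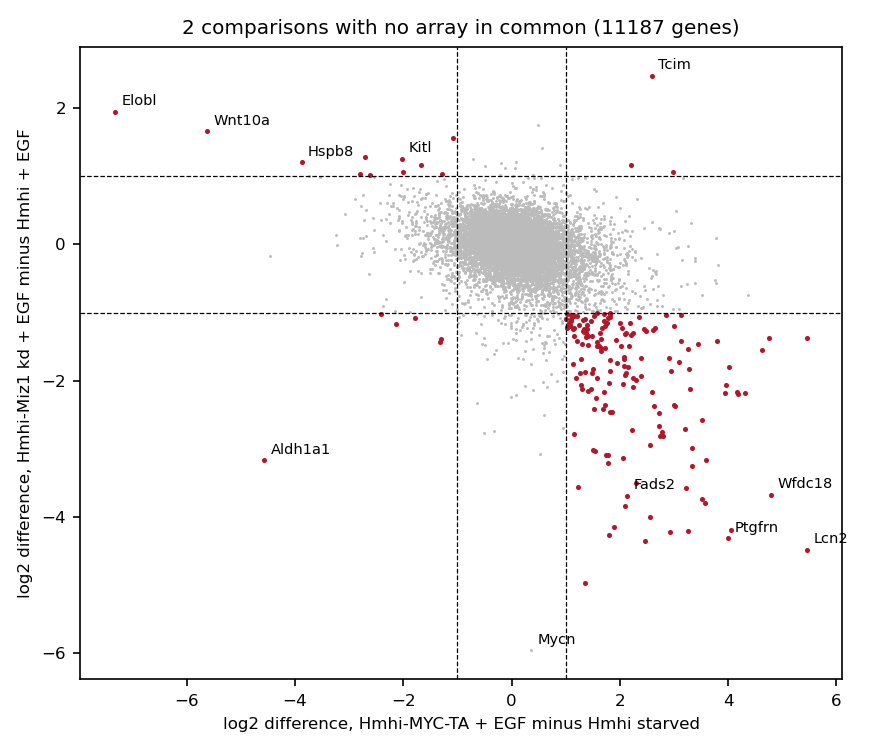
Log2 difference MYC-TA with EGF minus starved Hmhi (horizontal axis) against the array labelled Miz1 kd minus Hmhi with EGF (vertical axis) for 11187 genes, 1 point per gene; dashed lines mark 2-fold and red points are past it on both axes. Most red points, 162, lie at lower right, and Mycn, by the brightest of its disagreeing probe sets, is far down on the vertical axis at 0.36 on the horizontal one.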

How the data were processed

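Total RNA of 4 melan-a cultures was hybridised to 1 Affymetrix array each, with biotinylated cRNA made from 100 ng of total RNA, per the labels' protocols. The values deposited by the authors, which ran from 2.94 to 15.12, were read as log2 signals; the log base, summarization and normalization are not given in the sources used here. Sorted columns agreed to within 0.004, so equal medians were built in and a shift of all genes would not be seen.

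From these values, probe sets with several genes (932), with none (9160) and controls (64) were left out. Entrez identifiers matched the RefSeq table for 34741 sets and changed 0 symbols. The probe set brightest on average across the 4 arrays stood for its gene, a choice for 9010 genes, and entered if the brighter array reached its median. No test was run, since each condition had 1 array. Named genes were the 15 largest differences in each direction that were at least 2-fold with all usable probe sets of the same sign, up to 5 per list, Myc, Mycn, Zbtb17 and Cth, and up to 8 per array pattern within a window of 0.5; gene models without a proper name were left out. The members and lists were chosen with earlier results of these data known. The alternatives tried were other scalings (a common median, quantile, loess with span 0.4), level filters, probe set choices, a floor at the median and other fold thresholds. The steps were tested on simulated data. The tools were Python 3.11.15, matplotlib 3.10.9, statsmodels 0.14.6, scipy 1.17.1, pandas 2.3.3 and numpy 2.4.6. The number of arrays limits the precision.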

Additional observations from a re-analysis of the deposited data

Results flagged for a closer look

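Some probe sets outside the named genes also differed between the 2 arrays. The 3 control sets for 18S ribosomal RNA, a transcript that is not polyadenylated, were all higher in the MYC-TA array, with a median difference of 0.50 and a range of 0.45 to 0.63. They were higher still in Hmhi with EGF, at 13.09, 13.57 and 12.81 against 12.88, 13.40 and 12.43 in the MYC-TA array. The array labelled Miz1 kd was also above the starved array for each. The 3 control sets for B1 and B2 repeats, which are abundant in nuclear and unspliced RNA, had a median of 0.37. A B2 set read 15.12, the highest value of the data, in all 3 arrays with EGF. The 4 sets for pyruvate carboxylase, a biotin enzyme, had a median of 0.42, and all were higher. The brightest of them read 11.04 in Hmhi with EGF, against 10.84 in the MYC-TA array. Poly-A spike-in controls had a median of 0.05 over 27 sets and hybridization controls 0.00 over 18 sets. The beta-actin sets had -0.17 and the Gapdh sets 0.04. Among 3261 probe sets with several genes or no gene in the annotation, 141 were higher by 2-fold or more and 303 were lower. Among the 11598 genes of the comparison there were 966 higher, or 8.33%, and 570 lower, or 4.91%. Lower sets thus outnumbered higher ones among these probe sets, and the reverse held for the genes. The units differ, since each of these probe sets was counted singly and each gene only by its brightest set.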

How the results depend on the processing

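With 1 array a side, nothing here measures the spread between cultures, and the only error was that between probe sets. No paired analysis was possible because the groups held 1 array each. Counts of genes by array pattern were not run, since those patterns share arrays. A common median and quantile scaling left every count as it was. Sorted columns already agreed to within 0.004, so these 2 scalings could hardly change a count and are no check on it. Loess gave 904 higher and 607 lower genes. At 1.5-fold the counts were 1939 and 1481, and at 4-fold 185 and 96. With a filter at the 75th percentile, 625 genes were higher. That filter gave medians of 0.93 for apolipoproteins, 1.01 for chemokines, -0.37 for collagens, 1.09 for fibroblast markers, -1.90 for macrophage markers, -0.86 for lineage factors, 0.96 for metalloproteinases and -0.27 for the 2-cell list, whose sign turned. With both arrays above the median, these were -1.90 for macrophage markers, -0.62 for lineage factors and -0.27 for the 2-cell list, again reversed; under both filters that list is Eif1a alone, since its other genes did not pass. Without a filter the medians were -0.13 for S100 genes, -0.14 for Schwann markers, 0.19 for germline genes, 0.10 for macrophage markers (reversed), -0.31 for melanocyte markers and 1.24 for the 2-cell list. The mean of probe sets gave 0.51 for ERK feedback, -0.17 for S100 genes, -1.39 for Schwann markers, 1.04 for fibroblast markers and -0.66 for lineage factors. Only plain sets gave -1.14 for Schwann markers, -0.62 for lineage factors and 2.93 for the 2-cell list, and a floor at the median gave 1.15 for that list. The cause was not tested. The correlation with the Miz1 kd comparison stayed between -0.41 and -0.33. No named gene at least 2-fold apart changed sign. Of the smaller ones, Zbtb17 went from -0.02 to 0.13 with the mean of probe sets. In all, 74 of 234 moved by more than the technical SD with the mean of probe sets, 15 of 213 with plain sets and 42 of 249 with the floor.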
